A study of Mus musculus with 6 samples.

Results

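The genes described here are the ATF4 stress response and the amino acid supply genes that belong to it, 39 genes picked by symbol from a table of 22063 genes. The symbol *Ddit3* stood on 2 rows, so they filled 40 rows. One of those rows held a single read over all libraries and fell below the filter on low counts. The other 39 rows, 1 for each symbol, were among the 12862 rows tested.

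RNA-seq had been performed on primary cardiac fibroblasts from *Tet3* f/f mice on a C57BL/6 J background. The cells carried loxP-flanked *Tet3* alleles in both groups, and both groups received an adenovirus and were then treated with TGF-β for a day. The virus coded for EGFP in the control group (labelled Control, libraries GFP replicates 1, 2 and 3) and for Cre recombinase with EGFP in the other (labelled Tet3 knockout, libraries CRE replicates 1, 2 and 3). Cells without TGF-β, cells without virus and cells with Cre but no floxed allele were not analysed here, so an effect of Cre itself cannot be told apart from the loss of *Tet3*, and each value describes treated cells. The virus carried a CMV promoter and so was not restricted to fibroblasts, and neither the age of the mice nor the number of animals behind each library was given in the sources used here. The study calls its replicates biological, but no source used here ties a library to an animal or a culture. The p-values therefore measure the spread between these libraries, part of which may be technical.

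ATF4 is a transcription factor that cells make when the initiation factor eIF2 is phosphorylated, as happens when amino acids run short, when unfolded proteins fill the endoplasmic reticulum or when mitochondria fail. Its messenger RNA is translated better under that condition, so the transcript level and the protein level need not move together. ATF4 pairs with C/EBP proteins on a short element in its target genes, many of which make, import or charge amino acids. In fibroblasts exposed to TGF-β this programme is known to feed the glycine and proline of newly made collagen.

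Total gene counts were between 17002126 and 20343590 per library, and 3 counts corresponded to between 0.156 and 0.187 CPM (the usual depth-scaled counts, with TMM factors). *Tet3* itself had 1044, 965 and 1000 counts under GFP and 642, 649 and 637 counts under CRE, a log2 fold change of -0.72 ± 0.08 SE (edgeR adjusted p 5.36e-05). The exact two-sided permutation test of those values gave p = 0.1, the smallest that 3 against 3 allows. The CRE mean of *Tet3* was 60.8% of the GFP mean, so transcript was still counted in CRE. Counts over the whole gene do not show whether the floxed part was removed. The marker counts that follow stand beside 25.7% of all genes tested that were lower in CRE and 25.5% that were higher. All 10 fibroblast markers were detected. Their summed level was 29364 to 30528 CPM in GFP and 18151 to 19558 CPM in CRE, and 9 of the 10 were lower in CRE. Most of that sum came from 2 collagen transcripts, named after their values were seen. *Col1a1* was at 13729 CPM on average in GFP and 8248 CPM in CRE, and *Col1a2* at 11568 and 7391 CPM. Of 12 endothelial markers 10 were lower and 1 higher, and the median log2 fold change of the list was -1.17. Their summed level was 1055 to 1109 CPM in GFP and 978 to 1030 CPM in CRE, but most of it came from the 1 marker that was higher, *Eng* (named after its values were seen), at 641, 671 and 621 CPM in GFP and 774, 827 and 794 CPM in CRE. Macrophage and leukocyte markers summed to 59.3 to 67.1 CPM in GFP and 35.3 to 38.6 CPM in CRE, with 3 of 6 tested lower and none of the 12 at 0 in every library. Pericyte and smooth muscle markers summed to 1077 to 1235 CPM and 913 to 930.1 CPM, with 6 of 10 lower and 1 higher. Epicardial markers summed to 7.53 to 8.74 CPM and 7.29 to 10.9 CPM, with 2 of 4 tested higher and 1 lower, and none of those 6 was at 0 in every library. Cardiomyocyte markers summed to at most 1.66 CPM in any library, with *Myh6* and *Myl7* at 0. The part of these other cells in the results below was not tested, and in bulk RNA fewer cells of a type and less RNA per cell cannot be told apart.

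The ATF4 element is shown first, because it is the sequence through which ATF4 is known to act, although most of the genes with a promoter window did not hold it there. The letters TGATGNAA, read on both strands, were searched in the RefSeq windows from 250 bases before to 50 bases after each gene start (GRCm38.p6). Of the 39 genes, 33 had a window and 10 of those (30.3%) held the letters, against 4.51% of the 27025 genes in that table (3.97% of its 32851 windows). The genes were listed as ATF4 targets, many of them known through this element, so the share describes the list and was not tested. A match is not evidence of binding, and no match says only that these letters are not in this window. The cystine importer *Slc7a11* held the element in both orientations. Its promoter stretch from 96 to 10 bases before the start, chr3:50443623-50443709 on the minus strand, is given 5′ to 3′ with both matches in capitals.
Slc7a11: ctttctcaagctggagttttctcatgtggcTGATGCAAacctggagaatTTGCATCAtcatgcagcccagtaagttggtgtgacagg

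The other 9 genes with a match each had 1. The 30 bases around it are given on the strand that reads TGATGNAA, with the element in capitals, for the 5 genes that were lower in CRE, then the 1 that was higher, then the 3 that did not pass the test.
Asns (chr6:7693214-7693243, minus strand): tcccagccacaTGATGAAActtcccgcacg
Trib3 (chr2:152344028-152344057, plus strand): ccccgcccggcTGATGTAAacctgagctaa
Pycr1 (chr11:120643833-120643862, minus strand): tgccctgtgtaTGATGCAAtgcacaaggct
Gars (chr6:55037960-55037989, minus strand): cgcccggtgcaTGATGAAAtagcgcagcca
Vldlr (chr19:27216809-27216838, minus strand): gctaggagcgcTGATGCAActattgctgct
Nupr1 (chr7:126625562-126625591, plus strand): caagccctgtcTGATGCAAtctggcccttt
Chac1 (chr2:119351038-119351067, minus strand): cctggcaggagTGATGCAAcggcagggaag
Got1 (chr19:43524689-43524718, plus strand): ggaggcttgtaTGATGCAAccaatgcaatg
Slc1a4 (chr11:20332699-20332728, plus strand): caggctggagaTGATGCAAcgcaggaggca
Identical elements therefore stood near genes that fell, rose or did not pass the test after Cre. TGATGCAA was the form in *Slc7a11* (at both sites), *Pycr1* and *Vldlr*, which fell, in *Nupr1*, which rose, and in *Chac1*, *Got1* and *Slc1a4*. Of the 10 genes with a match 6 fell, 1 rose and 3 did not pass. Among the 23 genes with a window but no match, 16 fell, 1 rose and 6 did not pass. Over all genes tested 25.7% were lower and 25.5% higher. Whether genes with and without a match differ was not tested.

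Setting CRE against GFP addresses which of these transcripts differed under TGF-β once Cre had been delivered to cells with floxed *Tet3*. The test was passed by 30 of the 39 genes in either direction, where 51.2% of all genes tested passed. In CRE libraries 28 of the 39 genes (71.8%) were lower at an adjusted p under 0.05, where 25.7% of all genes tested were lower. The 39 genes were chosen with earlier results of these data known, so the share describes the list and was not tested. Only *Ddit3* and *Nupr1* were higher (5.13%, where 25.5% of all genes tested were higher), and 9 did not pass the test. The median log2 fold change was -0.44 over the 39 genes and 0.0052 over all genes tested. For 30 genes the highest CRE library was under the lowest GFP library (29.6% of all genes tested), and for 2 genes every CRE library was above GFP (30.0% of all genes tested). A log2 fold change under -1 with an adjusted p under 0.05 was found for 9 genes, where 4.56% of all genes tested had one. The study required a fold change under 0.66 or over 1.5 and p under 0.05 before adjustment. By that rule 15 genes fell and 2 rose, where 10.3% and 7.52% of all genes did. Scaling libraries by size alone moved the median of all genes by 0.17 on the log2 scale (so that 72.6% of all calls were higher, against 49.8%) and gave 23 genes lower and 4 higher. In each of these scalings, and on log2(FPKM + 1) values, 33 of the 39 genes lay below the median of all genes.

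**Figure D1:**
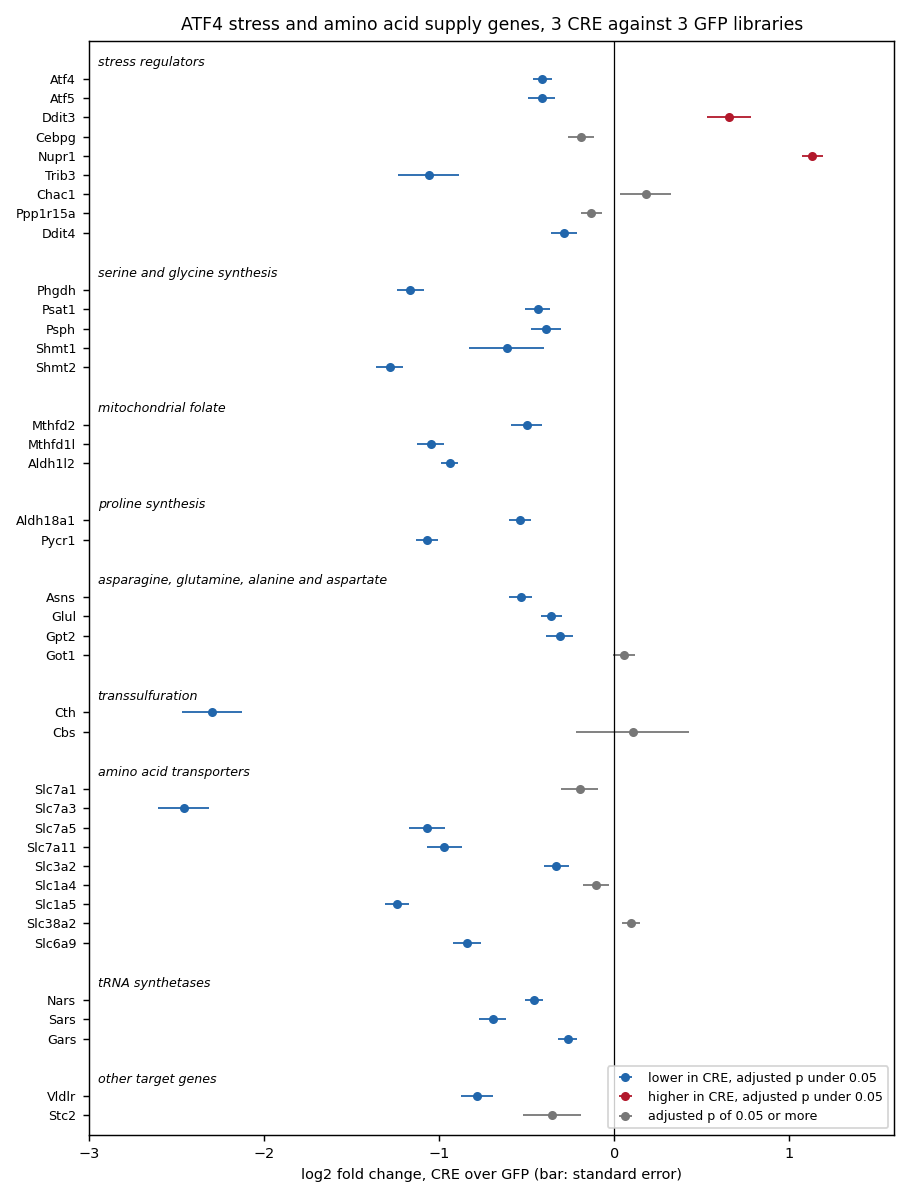
Log2 fold change of each of the 39 genes, CRE over GFP, from edgeR with TMM scaling, grouped by role. Points are estimates and bars are standard errors (3 libraries in each group). The 28 blue points are lower in CRE, the 2 red points (Ddit3 and Nupr1) are higher, and the 9 grey points did not pass an adjusted p of 0.05.

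Among the regulators, ATF4 and its closest relative were lower. *Atf4* (chr15:80255184-80257541, plus strand) was at 219, 195 and 206 CPM in GFP and at 157, 162 and 149 CPM in CRE. All CRE values lay under the lowest GFP value, and the log2 fold change was -0.41 ± 0.05 SE (adjusted p 0.000138). *Atf5*, a related factor under similar translational control, went from 163 ± 16.4 to 122 ± 8.21 CPM (SD, n = 3), or -0.41 on the log2 scale (adjusted p of 0.00114). *Cebpg*, which codes for a C/EBP partner of ATF4, was at 55.0, 50.6 and 50.3 CPM in GFP and 45.9, 49.95 and 40.9 CPM in CRE. Those groups did not overlap, yet the change of -0.19 missed the threshold (adjusted p of 0.0564), which it passed with no filter beyond 1 count (0.0476) and without CRE replicate 2 (-0.26, 0.0206), and without CRE replicate 3 it was at -0.11 (0.211). With library size alone it was at -0.027 (0.778).

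The other regulators divided. *Trib3*, a pseudokinase induced by ATF4 and CHOP that restrains both, was at 35.9, 20.9 and 25.3 CPM in GFP and 14.0, 13.3 and 11.9 CPM in CRE. It fell to 47.8% of the GFP mean, although GFP replicate 1 was well above the other GFP libraries (log2 fold change -1.06 ± 0.17 SE, adjusted p 0.00056; -0.82 without that library). *Ddit4*, an inhibitor of mTORC1, had a smaller decrease of 0.28 on the log2 scale (adjusted p of 0.00902) that did not pass with library size alone (-0.12, adjusted p of 0.188). *Ppp1r15a*, whose product leads a phosphatase to eIF2, had a value of -0.13 (adjusted p of 0.0928), and its sign turned with library size alone (0.032). *Chac1*, a glutathione-degrading enzyme, was at 11.3, 7.27 and 9.04 CPM in GFP and 10.3, 10.1 and 10.8 CPM in CRE, so the groups overlapped (log2 fold change of 0.18, adjusted p of 0.325). Without GFP replicate 1 it passed the threshold as higher (0.35, adjusted p of 0.0397), and without GFP replicate 2 it was at 0.036 (adjusted p of 0.838).

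The pair that rose consists of stress regulators rather than enzymes. *Nupr1* (chr7:126623249-126630861, minus strand), which codes for a small chromatin-associated stress protein, was at 153, 129.5 and 138 CPM in GFP and at 311, 310.1 and 301 CPM in CRE. Each CRE library thus lay far above each GFP library. In CRE the mean reached 219% of that in GFP, with a log2 fold change of 1.13 ± 0.06 SE (adjusted p 5.08e-07). *Ddit3* (chr10:127290774-127296288, plus strand) codes for CHOP, the factor that ATF4 calls on when stress lasts. It was at 30.9, 20.2 and 22.9 CPM in GFP and 37.3, 41.1 and 37.8 CPM in CRE, with no overlap (log2 fold change 0.66 ± 0.13 SE, adjusted p 0.00161). Its exons share 68 bases with *Mars1*, which lies on the other strand and had 1488 counts per library on average against 358 to 742 for *Ddit3*, and whether counting used the strand is not stated.

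Of the genes of serine and glycine synthesis 5 of 5 were lower with TMM scaling (25.7% of all genes tested), although the call for *Shmt1* was lost in other fits. *Phgdh* (chr3:98313170-98339990, minus strand) codes for the dehydrogenase that opens the serine pathway from glycolysis. It was at 171, 138 and 153 CPM in GFP and at 74.0, 67.1 and 64.6 CPM in CRE. The highest CRE library lay under the lowest GFP library by a wide margin, and the log2 fold change was -1.16 ± 0.08 SE (adjusted p 2.08e-06). The later steps moved less. *Psat1*, the aminotransferase, had a log2 fold change of -0.44 ± 0.07 SE (adjusted p 0.000588), and *Psph*, the phosphatase that releases serine, one of -0.39 (SE 0.09, adjusted p of 0.00336). *Psph* shares 10.4% of its exonic bases with *Cct6a* on the other strand, which had 4269 counts per library on average against 521 to 734 for *Psph*.

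Serine hydroxymethyltransferases turn serine into glycine and pass a carbon unit to folate. The mitochondrial enzyme *Shmt2* (chr10:127517123-127522444, minus strand) was at 156, 126 and 139.9 CPM in GFP and at 59.4, 54.8 and 59.3 CPM in CRE. It had the third largest decrease of the 39 genes, to 41.1% of the GFP mean (log2 fold change -1.28 ± 0.07 SE, adjusted p 7.96e-07). The cytosolic enzyme *Shmt1* was far less abundant per length, with 1.08 ± 0.16 FPKM against 58.4 ± 6.19 FPKM for *Shmt2* in GFP (SD, n = 3). *Shmt1* was at 3.36, 3.21 and 2.70 CPM in GFP and 2.20, 1.55 and 2.27 CPM in CRE (log2 fold change -0.61 ± 0.21 SE, adjusted p 0.0341). It shares 4.74% of its exonic bases with *Smcr8* on the other strand, which had 1955 counts per library on average against 28 to 57 for *Shmt1*. The call was lost in 9 of 17 other fits, 4 of which each left out 1 library (GFP replicate 1 or 2, CRE replicate 1 or 2; adjusted p of 0.0836, 0.0836, 0.0558 and 0.116) and 1 of which was DESeq2 (0.073).

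The mitochondrial folate enzymes, which carry that carbon unit on, were lower in 3 of 3 cases (25.7% of all genes tested). *Aldh1l2* (chr10:83487450-83534140, minus strand), which oxidises formyl-tetrahydrofolate, was the most counted of all 39 genes in GFP. It was at 517, 466 and 479.6 CPM there and at 259, 252 and 251 CPM in CRE. The CRE libraries lay close together at 52.2% of the GFP mean (log2 fold change -0.94 ± 0.05 SE, adjusted p 5.08e-07), although 14.1% of its exonic bases are shared with *D10Wsu102e* on the other strand, which had 5384 counts per library on average against 4551 to 9231 for *Aldh1l2*. *Mthfd1l*, which releases formate from the mitochondrion, fell from 58.0 ± 5.86 to 28.0 ± 1.5 CPM (SD, n = 3; log2 fold change of -1.05, adjusted p of 4.1e-06). *Mthfd2*, the dehydrogenase and cyclohydrolase that makes the formyl-tetrahydrofolate used by both, had a decrease of 0.50 on the log2 scale (SE 0.09, adjusted p of 0.000807).

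Proline is made from glutamate in a short mitochondrial route. *Aldh18a1*, which codes for the enzyme of its first steps, was at 187, 157 and 168 CPM in GFP and at 117, 120.0 and 116 CPM in CRE (log2 fold change -0.54 ± 0.06 SE, adjusted p 6.14e-05). *Pycr1* (chr11:120635712-120643769, minus strand), the reductase of the last step, was at 53.5, 49.2 and 54.3 CPM in GFP and at 26.1, 24.7 and 24.1 CPM in CRE. It fell to 47.7% of the GFP mean with little spread in either group (log2 fold change -1.07 ± 0.06 SE, adjusted p 7.96e-07).

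**Figure D2:**
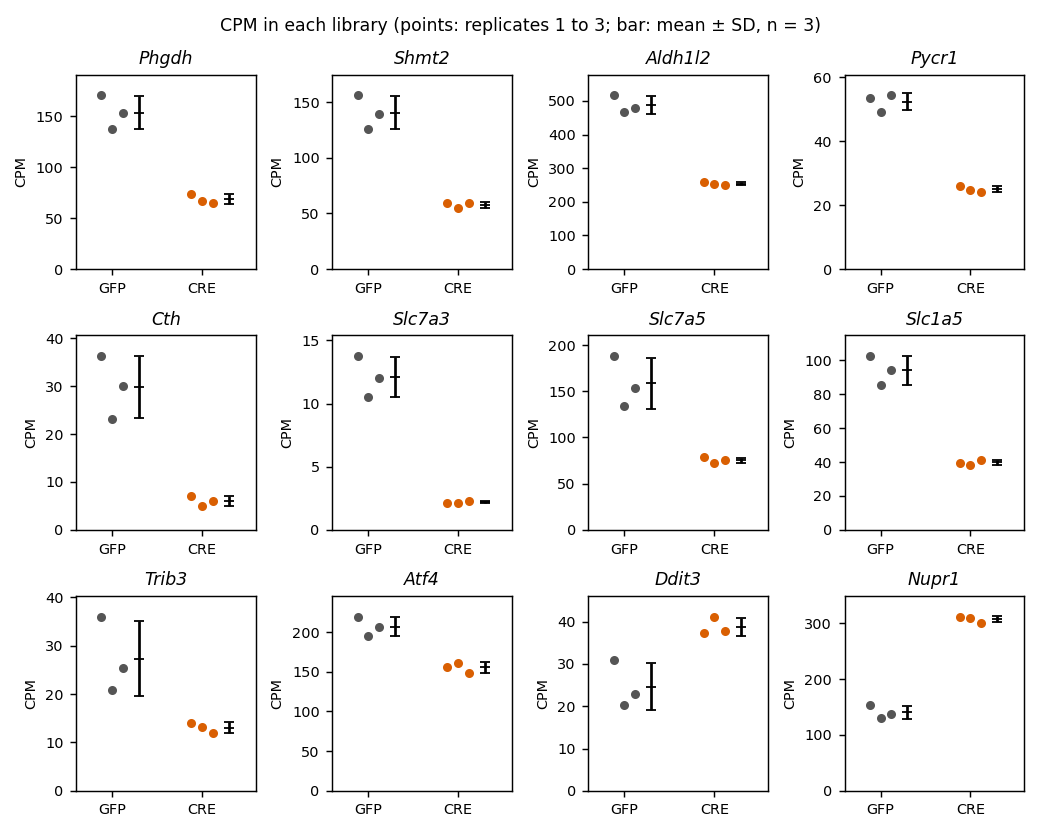
CPM in each library for 12 genes, GFP in grey and CRE in orange, with the mean ± SD (n = 3) beside the points; each axis starts at 0. CRE points lie below all GFP points in 10 panels and above them for Ddit3 and Nupr1.

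Asparagine synthetase, the textbook ATF4 target, was lower as well. *Asns* (chr6:7675169-7693254, minus strand) was at 239, 199 and 225 CPM in GFP and at 158, 149.5 and 150.3 CPM in CRE, with no overlap (log2 fold change -0.53 ± 0.06 SE, adjusted p 8.39e-05). *Glul*, glutamine synthetase, fell to 78.1% of the GFP mean (log2 fold change of -0.36, adjusted p of 0.000808). *Gpt2*, the mitochondrial alanine aminotransferase, fell to 80.5% (-0.31, adjusted p of 0.00783), a call that library size alone did not give (-0.15, adjusted p of 0.132). *Got1*, the cytosolic aspartate aminotransferase, was at 61.6, 53.0 and 53.0 CPM in GFP and 57.7, 57.3 and 59.0 CPM in CRE. Its groups overlapped (log2 fold change of 0.05, adjusted p of 0.503), and it passed as higher with library size alone (0.22, adjusted p of 0.0132).

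The transsulfuration enzymes, which make cysteine from homocysteine, gave the second largest decrease of the list with TMM scaling. *Cth* (chr3:157894248-157925077, minus strand), cystathionine gamma-lyase, was at 36.2, 23.2 and 30.1 CPM in GFP and at 7.04, 4.98 and 6.12 CPM in CRE. The mean dropped to 20.3% of that in GFP, and the lowest GFP library was still above every CRE library (log2 fold change -2.30 ± 0.17 SE, adjusted p 3.99e-06). *Cbs*, the enzyme before it, was barely detected, at 0.901 ± 0.076 CPM in GFP and 0.975 ± 0.31 CPM in CRE (SD, n = 3). The log2 fold change of 0.11 ± 0.32 SE (adjusted p 0.809) is wide, and a change of moderate size was not detectable at this depth.

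Of the 9 amino acid transporters 6 were lower (25.7% of all genes tested) and 3 did not pass the test. *Slc7a3* (chrX:101079210-101086020, minus strand), a carrier of cationic amino acids, had the largest decrease of the 39 genes with TMM scaling. It was at 13.7, 10.5 and 12.1 CPM in GFP and at 2.15, 2.16 and 2.27 CPM in CRE, 18.1% of the GFP mean (log2 fold change -2.46 ± 0.14 SE, adjusted p 8.54e-07). On log2(FPKM + 1) values *Cth*, at -1.86, fell more than *Slc7a3*, at -1.59. The related carrier *Slc7a1* was more abundant, at 19.0 ± 3.02 FPKM against 5.01 ± 0.634 FPKM for *Slc7a3* in GFP (SD, n = 3). Its groups overlapped, with a log2 fold change of -0.20 (adjusted p of 0.142) that passed without GFP replicate 2 (-0.29, adjusted p of 0.0427) and shrank to -0.052 without GFP replicate 1 (adjusted p of 0.531).

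The carriers of neutral amino acids varied widely. *Slc1a5* (chr7:16781340-16798274, plus strand), a glutamine carrier, was at 102, 85.2 and 94.6 CPM in GFP and at 39.7, 38.2 and 41.4 CPM in CRE (log2 fold change -1.24 ± 0.07 SE, adjusted p 6.7e-07). Its relative *Slc1a4* had a value of -0.11 (adjusted p of 0.272), with overlapping groups and a sign that turned with library size alone (0.057). It passed as lower without GFP replicate 2 (-0.18, adjusted p of 0.0483) and was at -0.018 without GFP replicate 1. *Slc38a2*, which carries small neutral amino acids and is itself known to be induced when they run short, was at 438, 452 and 405 CPM in GFP and 447, 473 and 463 CPM in CRE. Here too the groups overlapped (log2 fold change of 0.10, adjusted p of 0.139), and it passed as higher with library size alone (0.26, adjusted p of 0.00151). *Slc6a9*, a glycine carrier, fell from 85.2 ± 10.1 to 47.6 ± 2.26 CPM (SD, n = 3; log2 fold change of -0.84, adjusted p of 1.71e-05), although 27.8% of its exonic bases are shared with *Ccdc24* on the other strand, which had 15 counts per library on average.

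The heteromeric carriers consist of a light chain joined to the heavy chain that *Slc3a2* codes for. *Slc7a5* (chr8:121881150-121907694, minus strand), the light chain for large neutral amino acids, was at 188, 134 and 153 CPM in GFP and at 78.4, 72.8 and 75.2 CPM in CRE. GFP varied more than CRE, yet the groups were far apart (log2 fold change -1.07 ± 0.10 SE, adjusted p 1.67e-05). *Slc7a11*, the light chain of the cystine and glutamate exchanger whose promoter is shown above, was at 53.5, 39.8 and 46.4 CPM in GFP and at 24.0, 22.2 and 25.0 CPM in CRE (log2 fold change -0.97 ± 0.10 SE, adjusted p 2.94e-05). The heavy chain *Slc3a2* had a log2 fold change of -0.33 ± 0.07 SE (adjusted p 0.00316), which did not pass with library size alone (-0.17, adjusted p of 0.0623). Differences between genes in the size of the change were not tested.

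The list holds 3 tRNA synthetases, which charge tRNA with amino acids for translation, and 3 of 3 were lower with TMM scaling (25.7% of all genes tested). *Sars*, for serine, was at 276, 218 and 239 CPM in GFP and at 158, 143 and 152 CPM in CRE (log2 fold change -0.69 ± 0.08 SE, adjusted p 5.15e-05). *Nars*, for asparagine, was at 396, 350.2 and 369.6 CPM in GFP, and its CRE libraries agreed closely, at 271, 271 and 270.1 CPM (log2 fold change -0.46 ± 0.05 SE, adjusted p 4.36e-05). *Gars*, for glycine, changed least (-0.27 ± 0.06 SE, adjusted p 0.00298), and its call was lost with library size alone (-0.10, adjusted p of 0.134). In GFP these synthetases, with 132 to 149 FPKM on average, stood among the 4 most abundant of the 39 genes per length, next to *Nupr1* at 162 FPKM.

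The remaining genes code for proteins outside amino acid supply. *Vldlr*, a lipoprotein receptor, was at 57.1, 47.3 and 53.4 CPM in GFP and at 33.4, 26.4 and 31.7 CPM in CRE (log2 fold change -0.78 ± 0.09 SE, adjusted p 7.48e-05). *Stc2*, a secreted glycoprotein, was at 16.0, 9.92 and 13.0 CPM in GFP and 8.596, 10.5 and 11.2 CPM in CRE. Those groups overlapped (log2 fold change -0.35 ± 0.17 SE, adjusted p 0.101), and the value was -0.52 without GFP replicate 2 (adjusted p of 0.0132) and -0.19 without GFP replicate 1 (adjusted p of 0.318).

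**Figure D3:**
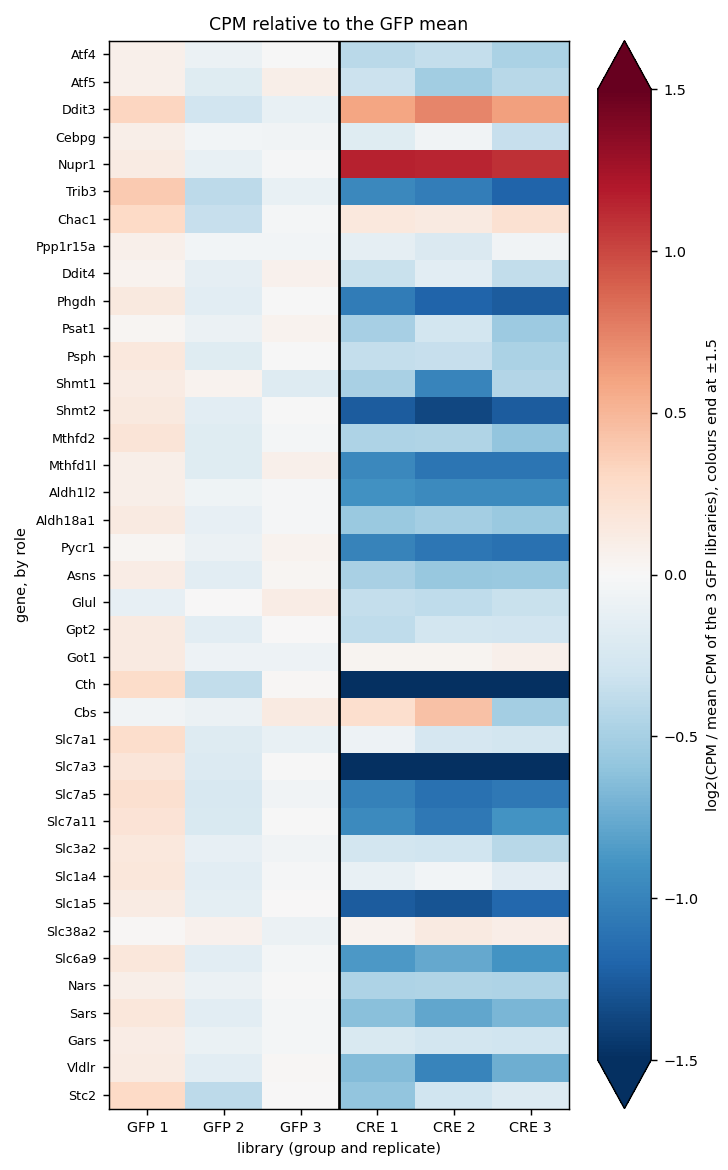
Log2 ratio of each gene's CPM to its mean over the 3 GFP libraries, one column per library and one row per gene, blue below and red above that mean; colours end at ±1.5. CRE columns are blue for most genes, and within GFP replicate 1 is tinted red and replicate 2 blue for most genes.

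The genes also moved together within the control group. GFP replicate 1 was the highest GFP library for 32 of the 39 genes, and GFP replicate 2 the lowest for 35. Over all genes tested these libraries held those places for 38.2% and 34.6%. The median deviation from the group mean over the 39 genes was 0.14 in GFP replicate 1, -0.15 in replicate 2 and -0.0043 in replicate 3 on the log2 scale. Over all genes tested it was 0.0047, -0.00074 and -0.00087. In CRE, replicates 1, 2 and 3 were highest for 16, 14 and 9 genes and lowest for 5, 14 and 20, and their median deviations were smaller (0.018, -0.013 and -0.019). The summed level of the 39 genes was 5083, 4338 and 4623 CPM in GFP and 3593, 3549.6 and 3487 CPM in CRE, so that even the lowest GFP library was above CRE. Leaving out GFP replicate 1 gave 27 genes lower and 3 higher (with *Chac1*), and leaving out GFP replicate 2 gave 30 lower and 2 higher. Over all genes, the fits that each left out 1 library gave 2874 to 3303 lower and 2735 to 3214 higher. What sets the GFP libraries apart was not tested.

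Other genes of the same pathways, 126 tested genes in 7 lists, were less one-sided. Of them 43 (34.1%) were lower and 34 (27.0%) higher, with a median log2 fold change of -0.0048. These shares stand nearer to the 25.7% and 25.5% of all genes. All lists were chosen with earlier results of these data known, and whether their shares differ from those of the 39 genes was not tested.

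Upstream of ATF4, among 17 genes of the eIF2 kinases and the eIF2 cycle, 4 were lower and 7 higher. The kinases *Eif2ak3*, which senses unfolded proteins, and *Eif2ak1*, which senses haem and mitochondrial stress, had log2 fold changes of 0.55 (adjusted p of 6.08e-05) and 0.47 (adjusted p of 2.1e-05). The kinase inhibitor *Dnajc3* and the eIF2 subunit *Eif2s2* had values of -0.42 and -0.34. A kinase's transcript does not report its activity, and phosphorylation of eIF2 was not analysed here. In the ATF6 and XBP1 arms of the unfolded protein response 8 of 17 genes were lower and 3 higher. Of those that passed the test, the chaperone *Hsp90b1* and *Manf* were lowest (-0.53 and -0.50), and *Dnajb9* and *Atf6* highest (0.54 and 0.44).

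Stress genes that ATF4 shares with other regulators also went both ways. Of 14 tested, 4 were lower and 5 higher. *Atf3*, a stress-induced factor that CHOP and p53 also act on, was at 2.86, 2.59 and 2.65 CPM in GFP and 11.01, 11.4 and 10.1 CPM in CRE (log2 fold change 2.0 ± 0.12 SE, adjusted p 1.13e-06). *Gdf15*, a secreted stress signal, had a log2 fold change of 1.99 ± 0.16 SE (adjusted p 6.49e-06). *Cebpb* and *Eif4ebp1*, a C/EBP factor and an inhibitor of translation initiation, were lower (-0.74 and -0.41).

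The remaining lists had genes on both sides, and the names given come from the ends of each list among genes that passed the test. Of 16 other cytosolic tRNA synthetases 8 were lower and 2 higher, with *Vars* and *Mars1* lowest (-0.74 and -0.64) and *Dars* and *Rars* highest (0.36 and 0.15). Of 19 other amino acid and folate enzymes 6 were lower and 4 higher, with *Bcat1*, which starts the breakdown of branched-chain amino acids, at -0.61, thymidylate synthase *Tyms* at -0.56 and *Mat2a* at 0.40. Of 17 other amino acid transporters 7 were lower and 4 higher. The lowest were *Slc38a7* (-1.41) and *Slc43a1* (-1.26). The highest was *Slc1a1*, from 0.111 ± 0.105 CPM to 1.48 ± 0.522 CPM (SD, n = 3), followed by *Slc38a9* (0.51). The GFP mean of *Slc1a1* is below 3 counts, although GFP replicate 3 was above them, at 0.208 CPM. Among 26 genes of amino acid sensing upstream of mTORC1 6 were lower and 9 higher, from *Rragb* (-1.31, under 1 CPM in each library) and *Lamtor1* (-0.50) to *Sesn3* (0.94) and *Rragd* (1.07).

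**Figure D4:**
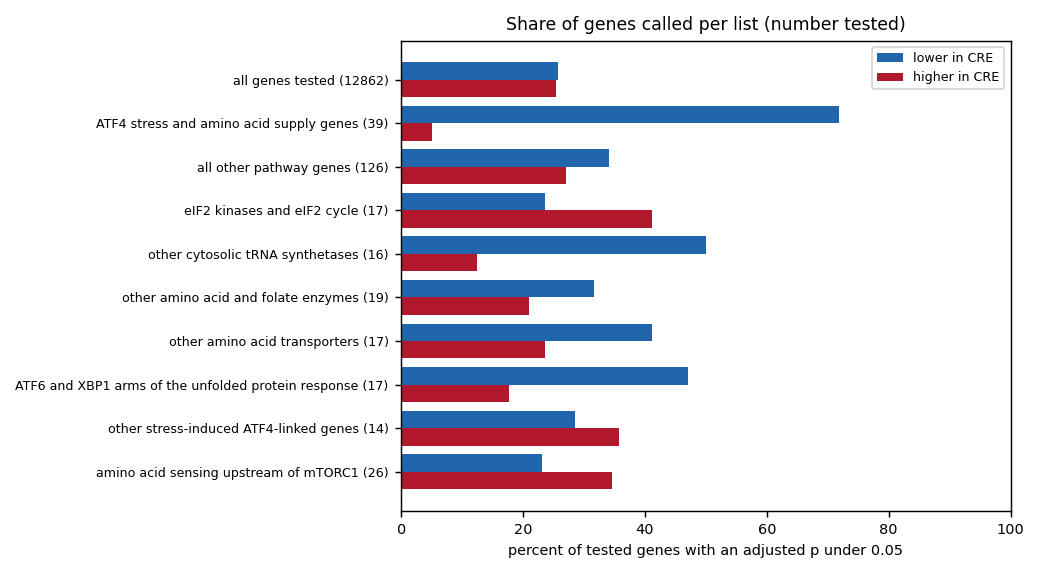
Percent of tested genes that were lower (blue) or higher (red) in CRE at an adjusted p under 0.05, for all genes tested, for the 39 ATF4 stress and amino acid supply genes and for the lists of other pathway genes (number tested in parentheses). The 39 genes stand at 71.8% lower and 5.13% higher, and all genes at 25.7% and 25.5%.

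**Figure D5:**
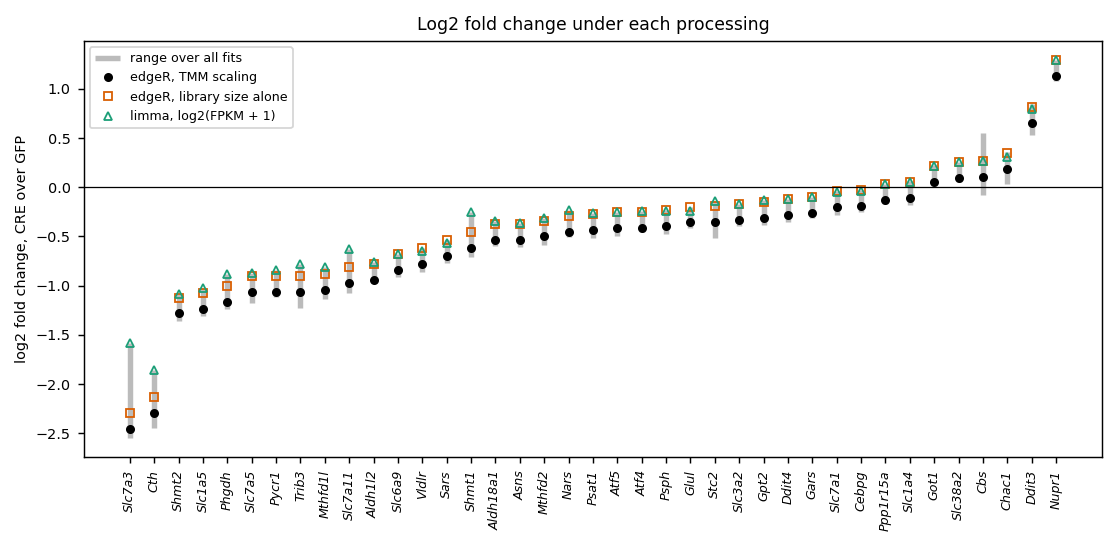
Log2 fold change of each of the 39 genes, CRE over GFP, in edgeR with TMM scaling (black), with library size alone (orange) and in limma on log2(FPKM + 1) (green); grey bars span all fits. The orange and green symbols lie above the black points, the genes at the left stay below 0 in every fit, and Ddit3 and Nupr1 stay above 0.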

How the data were processed

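Total RNA of 6 libraries, GFP replicates 1 to 3 and CRE replicates 1 to 3, had been sequenced and mapped to GRCm38. The authors made and deposited raw read counts per gene (HTSeq-count after HISAT2, per the study's methods) and FPKM values (Cufflinks). The methods name a stranded TruSeq kit with TRIzol, whereas the labels name a SMARTER kit with RNeasy, and the strand setting of the counting and the tool versions are not given in the sources used here. The deposited table also holds the authors' group means of FPKM, their log2 fold change and their p-value and FDR columns, which are the authors' own comparison and were not used. Every per-sample column was matched to a sample by its name.

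Counts were tested for CRE against GFP with edgeR 4.0.16 in R 4.3.3 (quasi-likelihood, two-sided, TMM scaling, filterByExpr with a minimum count of 10 and a minimum total of 15, no covariate), with Benjamini-Hochberg adjustment over 12862 genes and a threshold of 0.05. Rows with no count in any library (4856) and others below the filter were not tested. FPKM was used for levels between genes and, as log2(FPKM + 1), in limma 3.58.1. DESeq2 1.42.0, limma-voom, other scalings, filters and pseudocounts, a replicate block and leaving out each library were the alternatives. The fitting steps were tested on simulated data. Depth was 17002126 to 20343590 counts per library, and a floor of 3 counts covers counting error only. The 39 genes and the other lists were chosen with earlier results of these data known. All 39 genes were named, with up to 2 genes at each end of each other list among those that passed the test, and *Tet3*. A gene that this rule names is not reported here. Gene coordinates are from GENCODE M21 (GRCm38) and promoter windows from RefSeq (GRCm38.p6). *Aldh1l2*, *Cth*, *Nars*, *Slc1a5*, *Slc7a3* and *Slc7a5* had no window.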

Additional observations from a re-analysis of the deposited data

How the results depend on the processing

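Of the 30 genes that passed the test, 22 (20 lower, 2 higher) passed in each of the 12 other fits and 6 leave-one-out fits that gave a value, 8 lost the call in at least 1, and none of the 30 changed sign. *Atf5*, *Psph* and *Glul* lost it only on log2(FPKM + 1) with any FPKM. *Ddit4*, *Gpt2*, *Slc3a2* and *Gars* lost it with library size alone and on FPKM, and *Shmt1* in 9 fits. Leaving out single libraries gave 27 to 30 genes lower, 2 to 3 higher, a median of -0.50 to -0.41 and a log2 fold change of -0.78 to -0.62 for *Tet3*. Over all genes those fits gave 2874 to 3303 lower and 2735 to 3214 higher.

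With library size alone and in the 4 FPKM fits (log2(FPKM + 1), log2(FPKM + 0.1), a mean of at least 1 FPKM, any FPKM) 4 of the 39 genes were higher, with *Got1* and *Slc38a2* added. Their median was then -0.27, -0.25, -0.25, -0.25 and -0.25. Over all genes, 5529 were higher and 2083 lower with library size alone, 4976 and 1916 on log2(FPKM + 1) and 4989 and 1909 on log2(FPKM + 0.1), while 1707 were lower with a mean of at least 1 FPKM and 1855 with any FPKM. Of the other pathway genes 57 were higher with library size alone (34 with TMM scaling). In the FPKM fits 26, 25, 26 and 24 were lower (43 with TMM scaling). At the threshold of the study 15 of the 39 genes were lower, and 2290 of all genes passed, 967 higher and 1323 lower. The sign of genes that had not passed turned for *Ppp1r15a* (0.032 with library size alone, 0.029, 0.030, 0.029 and 0.029 on FPKM), *Slc1a4* (0.057, then 0.057, 0.059, 0.057 and 0.057) and *Cbs* (-0.078 without CRE replicate 2, with up to 0.34 when other libraries were left out). The cause was not tested.

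The replicate numbers were not treated as pairs, because the study describes its own test without a covariate. The deviations of same-numbered libraries correlated at 0.046, 0.18 and -0.018, and those of differently numbered libraries at -0.12 to 0.071. These values do not settle whether the libraries are paired. With the number as a replicate block, 30 of the 39 genes were lower, with *Cebpg* and *Slc7a1* added, and 2 higher. Without the block 28 were lower and 2 higher, where 25.7% and 25.5% of all genes tested were. Depth limits *Cbs* and *Shmt1*, at under 4 CPM.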
